A study of Mus musculus with 4 samples.

Results

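The 10 genes described here, Atf3, Sprr1a, Gal, Npy, Gap43, Sox11, Ecel1, Cckbr, Gadd45a and Stmn4, are known as genes that sensory neurons switch on after their axons are damaged. They were found by name among the probes of the array: 13 probes carried 1 of these names, of 39429 probes and 30028 gene names in all. RNA of whole cochleae was measured on 1 array for each of 4 groups of B6J background. The groups were wild-type mice without treatment (untreated WT), wild-type mice given diphtheria toxin, or DT (DT-treated WT), and Prestin-hDTR mice without and with the toxin (untreated hDTR and DT-treated hDTR). Prestin-hDTR mice, which the labels call OHC-TRECK, carry human HB-EGF, the receptor for DT, under the promoter of Slc26a5 (prestin), a motor protein gene of the outer hair cells (OHCs) that amplify sound. They come from 1 transgenic line. DT was given at 50 μg/kg body weight, 7 days before the cochleae were taken from mice labelled as 5 weeks old. The RNA on each array was a pool of 8, with 4 females and 4 males, so each value is that of a pool, no spread between mice can be had, and no test was made. The question was which of the 10 genes were higher after OHC depletion than in each of the 3 controls, and which of those values are only lower bounds.

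When the axon of a peripheral sensory neuron is cut or crushed, a programme of transcription factors, growth cone proteins and neuropeptides is switched on in the cell body, and some of these genes are used as markers of an injured neuron. Atf3 and Sprr1a are nearly silent in intact sensory ganglia, whereas Gap43, Sox11 and Stmn4 are also used by growing or mature neurons. In the cochlea, the spiral ganglion neurons carry the signal of the hair cells to the brain, most of them from inner hair cells and a minority from OHCs. Several of these genes are not used by neurons alone: Atf3 and Gadd45a respond to stress in many cell types, and Sprr1a is a building block of the cornified envelope of skin.

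Of the 10 genes, 5 were at least 2-fold higher in DT-treated hDTR than in each of the 3 controls: Sprr1a, Cckbr, Atf3, Gap43 and Gadd45a. A signal counted as measured where the scanner software marked it as well above background. Atf3, Gap43, Gadd45a and 1 of 2 probes of Cckbr were well above background on all 4 arrays, and Sprr1a was not well above background in untreated WT, so that its value against this control is a lower bound, set against the lowest measured signal of that array. Gal, Npy, Sox11, Ecel1 and Stmn4 did not reach 2-fold against any control. Against untreated WT, 5 of 13 probes compared were upregulated, where 1.96% of all 26810 probes compared were. Against DT-treated WT, 5 of 12 probes were upregulated, where 1.41% of 25394 were. Against untreated hDTR, 5 of 12 probes were upregulated, where 2.49% of 28082 were. The 3 comparisons share the array of DT-treated hDTR, and 1.08% of the 25061 probes compared in all of them were upregulated in all 3. With 1 probe per gene, the median log2 ratio of the 10 genes was 1.02, 0.73 and 0.93 against the 3 controls in this order, beside -0.02, 0.01 and -0.01 over all genes compared. Over all member probes with a fold, the median was 0.32, 0.34 and 0.70. These medians also take in the second probes of Sox11 and Stmn4. The single probe taken for Cckbr is the brighter of 2 that disagreed, and the other has a fold against untreated WT only.

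Here and below, a signal is given on the log2 scale with 0 at the 75th percentile of the array. The error of a ratio is the combined SD of repeated spots of like signal on its 2 arrays, and so covers differences between spots but none between mice. In whole cochleae, more cells of a type and more RNA per cell cannot be told apart. Of 7 OHC markers, 4 (Ocm, Strc, Chrna9 and Chrna10) were downregulated 2-fold or more in all 3 comparisons, which is the check on the depletion. The summed normalized signal of the 7 markers was 23.0 to 25.0 in the controls and 5.73 in DT-treated hDTR. The 3 inner hair cell markers did not change 2-fold and summed to 4.46 to 4.86 in the controls and 4.87 in DT-treated hDTR. Slc17a8 (0.69-fold, 0.78-fold and 0.75-fold) and Otof (0.72-fold, 0.65-fold and 0.63-fold) lay below every control and Tbx2 (1.48-fold, 1.44-fold and 1.39-fold) above every control. The arrays were alike in the 75th percentile, at intensities of 2728 to 3162, while 62.2% to 70.6% of the probes were well above background.

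**Figure D1:**
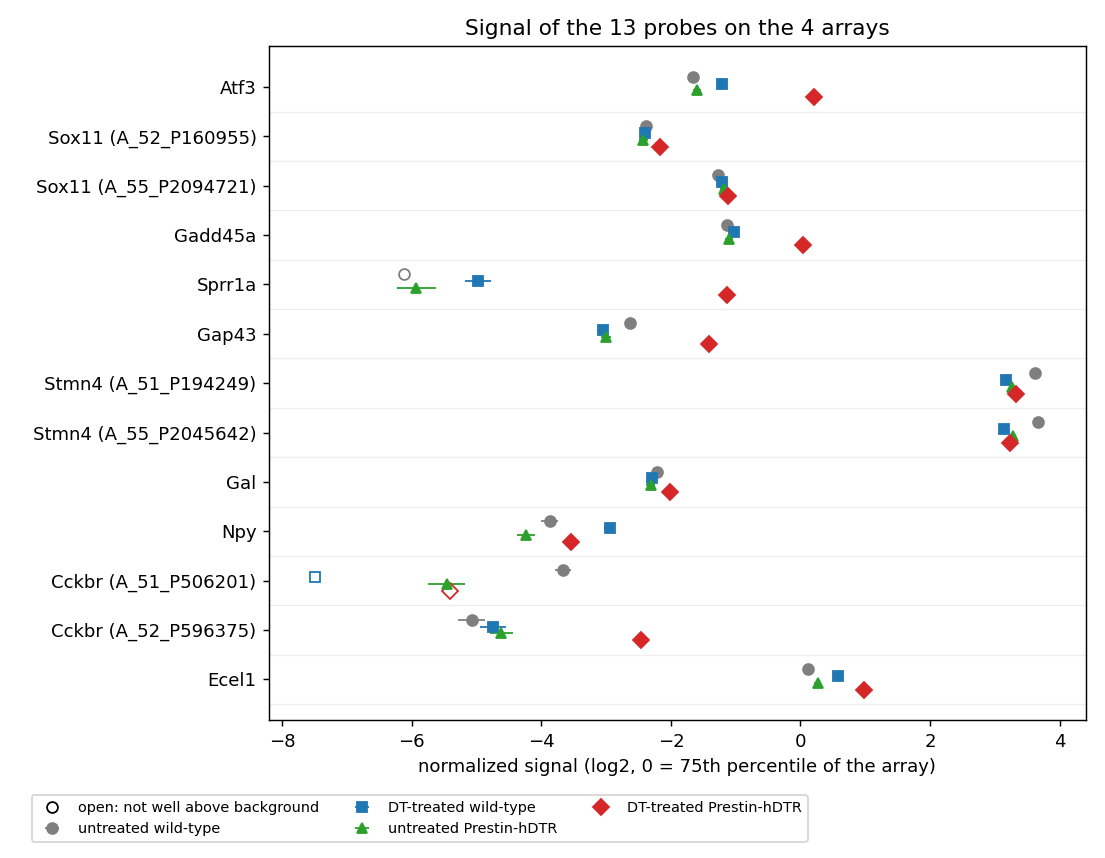
Normalized signal (log2, 0 at the 75th percentile of the array) of the 13 probes of the 10 genes in untreated WT, DT-treated WT, untreated hDTR and DT-treated hDTR, 1 pooled array each. Bars give the SD of repeated spots of like signal, and open symbols mark values not well above background; Sprr1a in DT-treated hDTR stands at -1.13, against -6.12 to -4.98 in the controls.

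Sprr1a encodes a small proline-rich protein of the cornified envelope in skin, which is also made by injured sensory neurons and promotes the outgrowth of their axons. Its probe (A_51_P139678, mm9 chr3:92287955-92288014, minus strand) gave a signal of -6.12 in untreated WT, -4.98 in DT-treated WT, -5.93 in untreated hDTR and -1.13 in DT-treated hDTR. The 3 controls lay near the lower limit of the arrays and the depleted cochlea lay far above them, with a raw intensity of 1426 against 39.2, 100.5 and 49.5. Sprr1a was at least 27.8-fold higher than in untreated WT, where the probe was not well above background. It was 14.4-fold higher than in DT-treated WT, a log2 ratio of 3.85 ± 0.21. Against untreated hDTR it was 27.9-fold higher, a log2 ratio of 4.80 ± 0.31. With background correction by normexp in place of the software's own, these values were lower, at least 12.8-fold, 8.89-fold and 13.4-fold. Among all probes compared, the Sprr1a probe ranked 1 in each of these 3 comparisons under this processing. Lower bounds were ranked at the bound. A probe with no measured signal in a control, such as that of Npy2r below, may therefore have a larger ratio. The DT-treated WT array was the brightest of the controls for Sprr1a, at least 1.93-fold above the untreated WT array.

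The 250 bases before the Sprr1a start are shown because this promoter was the only one, among the 8 of 10 members found in the RefSeq promoter table, to hold the AP-1 motif TGAGTCA or its reverse complement TGACTCA. AP-1 factors are dimers of Jun, Fos and ATF proteins. The sequence lies at chr3:92485882-92486131 of GRCm38.p6, on the minus strand, and the capitals mark the 2 matches, which begin 146 and 116 bases before the start. For Atf3, whose protein belongs to this group of factors, the same stretch at chr1:191183334-191183583, on the minus strand, holds no match.
Sprr1a: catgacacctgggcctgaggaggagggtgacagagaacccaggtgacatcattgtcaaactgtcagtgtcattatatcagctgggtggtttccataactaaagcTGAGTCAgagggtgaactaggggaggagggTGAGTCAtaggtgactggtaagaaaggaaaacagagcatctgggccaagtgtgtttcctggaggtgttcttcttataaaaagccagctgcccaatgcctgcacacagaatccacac
Atf3: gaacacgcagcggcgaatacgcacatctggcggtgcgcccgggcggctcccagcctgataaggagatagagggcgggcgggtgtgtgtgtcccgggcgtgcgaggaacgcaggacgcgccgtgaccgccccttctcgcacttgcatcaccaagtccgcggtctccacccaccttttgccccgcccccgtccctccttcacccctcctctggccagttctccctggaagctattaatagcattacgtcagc
Neither these 2 nor the other 6 promoters (Gal, Npy, Sox11, Ecel1, Cckbr and Gadd45a) held the CRE motif TGACGTCA, to which ATF and CREB factors bind. Among 32851 promoters of this length in the table, 4.46% held the AP-1 motif and 1.55% the CRE motif, both strands searched. Only exact matches to these letters were sought, so variants of the motifs were not counted. A match of letters is a description of the sequence, and binding was not measured.

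The signal of Sprr1a was set beside markers of skin, since the gene is also expressed there. Of 13 keratinocyte genes, 9 were well above background on at least 1 array, and their summed normalized signal was 3.03 in untreated WT, 2.96 in DT-treated WT, 2.73 in untreated hDTR and 2.86 in DT-treated hDTR. Most of this sum in each group was Trp63. Without it, a choice made after the values were seen, the other 8 genes summed to 1.07, 1.07 and 1.03 in the controls and 1.27 in the depleted cochlea. Of the 6 keratinocyte genes with a fold against every control, 3 were below and 3 above all of them. Krt5 (0.86-fold, 0.99-fold and 0.95-fold), Krt14 (0.89-fold, 0.69-fold and 0.98-fold) and Trp63 (0.81-fold, 0.84-fold and 0.94-fold) were below. Krt10 (1.20-fold, 1.21-fold and 1.17-fold) and Lor (1.36-fold, 1.30-fold and 1.54-fold) were above, as was Ivl. Ivl (involucrin, another envelope protein) was the only keratinocyte gene upregulated 2-fold or more in all 3 comparisons, at least 3.28-fold, at least 2.40-fold and 3.22-fold. A second Ivl probe gave no signal well above background. The relatives Sprr1b, Sprr2a1, Sprr2d, Sprr2f and Sprr3 were not well above background on any array, and neither were Krt1, Krt15, Dsg1a and Dsc3. The part of such cells in the values of Sprr1a was not tested.

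Atf3 encodes a transcription factor of the ATF/CREB family that is induced within the cell bodies of injured sensory neurons. Its probe (A_52_P452689, mm9 chr1:192994547-192994606, minus strand) gave -1.66 in untreated WT, -1.21 in DT-treated WT, -1.60 in untreated hDTR and 0.21 in DT-treated hDTR. The depleted cochlea was above all controls, and DT-treated WT was the highest of these. Atf3 was 3.66-fold higher than in untreated WT, a log2 ratio of 1.87 ± 0.10. It was 2.67-fold higher than in DT-treated WT and 3.50-fold higher than in untreated hDTR. These values are in the upper 1% of all probes in each comparison. Of the relatives and partners of Atf3 that were listed, Jund, Jdp2, Batf3, Atf4 and Ddit3 all lay between 0.83-fold and 1.13-fold of the 3 controls, and Jun lay between 1.04-fold and 1.12-fold. Fos, another AP-1 factor, was 3.29-fold, 3.25-fold and 3.31-fold higher than in the 3 controls and is named here for its likeness to Atf3 in pattern.

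Gadd45a encodes a small stress protein of the response to growth arrest and DNA damage. Its probe (A_51_P296608, mm9 chr6:66985376-66985435, minus strand) gave -1.13, -1.02 and -1.11 in the untreated WT, DT-treated WT and untreated hDTR controls and 0.04 in DT-treated hDTR. The controls lay close together, and the depleted cochlea stood apart from all of them. Gadd45a was 2.25-fold, 2.09-fold and 2.22-fold higher than in the 3 controls, with log2 ratios of 1.17 ± 0.10, 1.06 ± 0.09 and 1.15 ± 0.09. It is the member nearest above the 2-fold threshold. Its paralogs did not reach the threshold: Gadd45b was 1.43-fold, 1.26-fold and 1.33-fold of the controls and Gadd45g 0.68-fold, 0.88-fold and 0.85-fold.

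Sox11 encodes a transcription factor of differentiating neurons that takes part in the regrowth of axons. The first of 2 probes (A_52_P160955, mm9 chr12:28019541-28019600, minus strand) gave -2.38, -2.40 and -2.43 in untreated WT, DT-treated WT and untreated hDTR and -2.17 in DT-treated hDTR. The second probe (A_55_P2094721, mm9 chr12:28020087-28020146, minus strand) gave -1.27, -1.21, -1.18 and -1.12 in the same order. The depleted cochlea was the highest of the 4 on both, by small steps. The ratios were 1.16-fold, 1.17-fold and 1.19-fold on the first probe and 1.11-fold, 1.07-fold and 1.04-fold on the second. These probes share no bases, and their log2 ratios differed by at most 0.19. The related Sox4 was 1.37-fold, 1.41-fold and 1.49-fold of the controls.

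Gap43 encodes a membrane protein of growth cones and of neurons that regrow their axons. Its probe (A_55_P2096867, mm9 chr16:42248714-42248773, minus strand) gave -2.64 in untreated WT, -3.05 in DT-treated WT, -3.01 in untreated hDTR and -1.42 in DT-treated hDTR. The depleted cochlea was highest, and untreated WT was the highest control. Gap43 was 2.33-fold, 3.11-fold and 3.01-fold higher than in the 3 controls, with log2 ratios of 1.22 ± 0.11, 1.64 ± 0.11 and 1.59 ± 0.11. Marcks, a related substrate of protein kinase C, was 1.28-fold, 1.42-fold and 1.45-fold of the controls, and Basp1, which has a similar role in growth cones, was 1.23-fold, 1.36-fold and 1.30-fold.

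Stmn4 encodes a stathmin, a protein that regulates microtubules in neurons. In it, as in Npy, the depleted cochlea lay among the controls. One of its 2 probes (A_51_P194249, mm9 chr14:66980442-66980501, plus strand) gave 3.62, 3.17 and 3.26 in untreated WT, DT-treated WT and untreated hDTR and 3.33 in DT-treated hDTR. The other probe (A_55_P2045642, mm9 chr14:66980426-66980485, plus strand), which shares 44 bases with it, gave 3.67, 3.14, 3.28 and 3.24. Untreated WT was the highest array on both probes. Against this control the ratios were 0.82-fold and 0.74-fold, and against the other controls they lay between 0.97-fold and 1.12-fold. The other stathmins did not rise: Stmn1, Stmn2 and Stmn3 were 0.73-fold to 0.99-fold of the controls.

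Among the neuropeptides, Gal encodes galanin, which injured sensory neurons release. Its probe (A_51_P258281, mm9 chr19:3411143-3411202, minus strand) gave -2.22, -2.29 and -2.31 in untreated WT, DT-treated WT and untreated hDTR and -2.01 in DT-treated hDTR. The depleted cochlea was highest, by 1.16-fold, 1.21-fold and 1.23-fold. Galr1, Galr2 and Galr3, the galanin receptors, were not well above background on any array, and the related peptide Galp lay between 0.99-fold and 1.04-fold of the controls.

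Npy encodes neuropeptide Y, which sympathetic neurons use and large sensory neurons start to make after injury. Its probe (A_51_P454873, mm9 chr6:49773743-49777505, plus strand, crossing an intron) gave -3.87 in untreated WT, -2.94 in DT-treated WT, -4.23 in untreated hDTR and -3.55 in DT-treated hDTR. The highest array was DT-treated WT, and the controls spanned 2.44-fold, which is more than any ratio of the depleted cochlea. Npy in DT-treated hDTR was 1.25-fold of untreated WT, 0.66-fold of DT-treated WT and 1.60-fold of untreated hDTR. Npy was higher with DT than without it in both genotypes, 1.91-fold in WT. Markers of neutrophils also differed between the controls: the summed signal of 8 such genes was 37.8, 59.0 and 13.6 in untreated WT, DT-treated WT and untreated hDTR and 22.4 in DT-treated hDTR, again higher with DT in both genotypes. None of the 8 changed 2-fold in all 3 comparisons. Against DT-treated WT, 7 were 2-fold or more lower, where 1.83% of all probes were. Against untreated WT, 2 were lower, where 1.95% were, and against untreated hDTR, 3 were higher, where 2.49% were. The part of neutrophils in the values of Npy was not tested.

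The receptors of neuropeptide Y differed from the peptide. Npy2r, a receptor at nerve endings, had a measured signal on the DT-treated hDTR array alone, at -2.77, and was at least 8.92-fold, at least 6.53-fold and at least 12.3-fold higher than in the 3 controls. All 3 are lower bounds, and a second Npy2r probe (A_51_P311919) gave no signal well above background. Npy1r lay between 0.88-fold and 1.09-fold of the controls, and Npy5r gave no measured signal.

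Cckbr encodes the receptor for gastrin and cholecystokinin that is found on neurons and on cells of the stomach. Its 2 probes disagreed. The probe A_52_P596375 (mm9 chr7:112584581-112584640, plus strand) gave -5.07 in untreated WT, -4.75 in DT-treated WT, -4.62 in untreated hDTR and -2.46 in DT-treated hDTR. On this probe all controls were dim but measured, and the depleted cochlea was 6.11-fold, 4.88-fold and 4.45-fold higher, with log2 ratios of 2.61 ± 0.22, 2.29 ± 0.22 and 2.16 ± 0.20. With normexp the values were 3.86-fold, 3.45-fold and 3.33-fold. The probe A_51_P506201 (mm9 chr7:112582327-112582546, plus strand, crossing an intron) gave -3.66 in untreated WT and -5.46 in untreated hDTR. It gave -7.49 in DT-treated WT and -5.40 in DT-treated hDTR, where it was not well above background. On that probe untreated WT was the highest, and the depleted cochlea was at least 3.34-fold lower than it (with normexp, a log2 ratio of -1.05). This was the only member probe downregulated against untreated WT, where 1.95% of all probes were. No fold was given against the other controls, where the depleted cochlea had no measured signal to set against them. The upregulation of Cckbr thus rests on 1 of 2 probes. The sequence of the probe that did not show it is given so that it can be placed in the transcript.
Cckbr A_51_P506201: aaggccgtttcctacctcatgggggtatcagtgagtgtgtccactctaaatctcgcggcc
The ligand Cck, which gave 0.85, -0.09, 0.34 and -0.10 in the 4 groups in the same order, was 0.52-fold, 1.0-fold and 0.74-fold of the controls. Cckar, the other receptor, was 1.24-fold of untreated WT, at least 1.67-fold of DT-treated WT and 0.87-fold of untreated hDTR.

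Ecel1 encodes a membrane protease of neurons, related to the endothelin-converting enzymes and induced by nerve injury. Its probe (A_55_P2181341, mm9 chr1:89044233-89044292, minus strand) gave 0.12 in untreated WT, 0.58 in DT-treated WT, 0.27 in untreated hDTR and 0.99 in DT-treated hDTR. The depleted cochlea was highest and DT-treated WT came next. Ecel1 was 1.82-fold, 1.32-fold and 1.65-fold of the 3 controls, the member nearest below the 2-fold threshold. Ece1 and Ece2 lay between 0.83-fold and 0.99-fold.

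**Figure D2:**
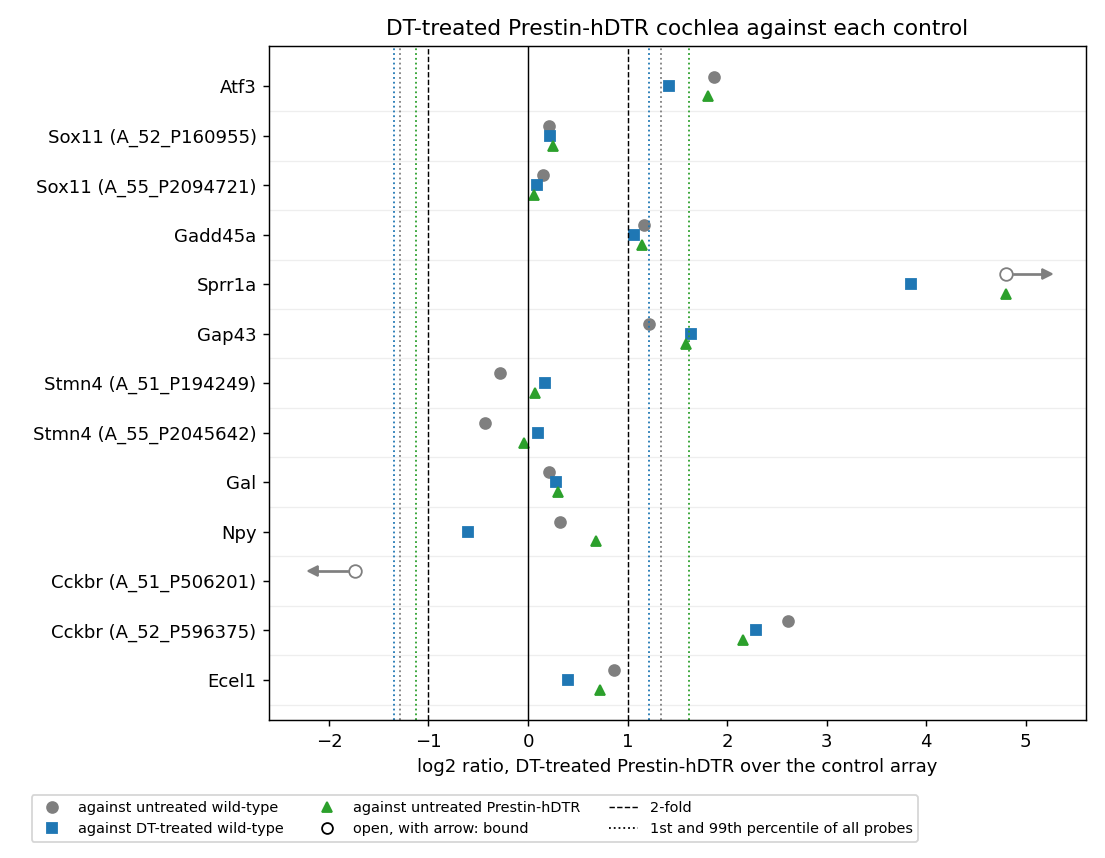
Log2 ratio of DT-treated hDTR over untreated WT (circles), DT-treated WT (squares) and untreated hDTR (triangles) for each probe, with the 2-fold lines (dashed) and the 1st and 99th percentile of all probes (dotted, in the colour of the comparison). Open symbols with an arrow are bounds; Sprr1a lies furthest to the right at 3.85 to 4.80, and the 2 Cckbr probes lie on opposite sides of 0 against untreated WT.

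The control arrays show how the 10 genes differed without OHC depletion. In untreated hDTR against untreated WT, no member probe was upregulated 2-fold, where 1.01% of all probes were, and 1 was downregulated, where 2.32% of all were. Between DT-treated and untreated WT, no member probe reached 2-fold upward, where 1.46% of all probes did, and 1 was downregulated, where 1.09% were. The downregulated probe was A_51_P506201 of Cckbr each time, 0.29-fold for the transgene and at least 3.52-fold lower for DT. Sprr1a was at least 1.93-fold higher with DT in WT, a bound that leaves a value past 2-fold possible, and no fold of it could be given for the transgene. Of the other upregulated genes, Atf3 was 1.05-fold for the transgene and 1.37-fold for DT in WT. Gadd45a was 1.01-fold and 1.08-fold, Gap43 0.77-fold and 0.75-fold, and Cckbr on the probe A_52_P596375 1.37-fold and 1.25-fold. These control comparisons share the untreated WT array.

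The effect of DT in hDTR less that in WT, a log2 difference over all 4 arrays, was 2.0 for Gap43, 1.83 for the probe A_52_P596375 of Cckbr, 1.35 for Atf3 and 1.04 for Gadd45a. These were the 4 of 11 member probes well above background on all arrays whose DT effect was 2-fold or more higher in hDTR. Of all 23688 such probes, 1.19% were. For Sprr1a the difference is at most 3.85, since the untreated WT value was raised to the lowest measured signal. It was 0.37 for Gal, 0.26 for Ecel1 and -0.25 for Npy.

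**Figure D3:**
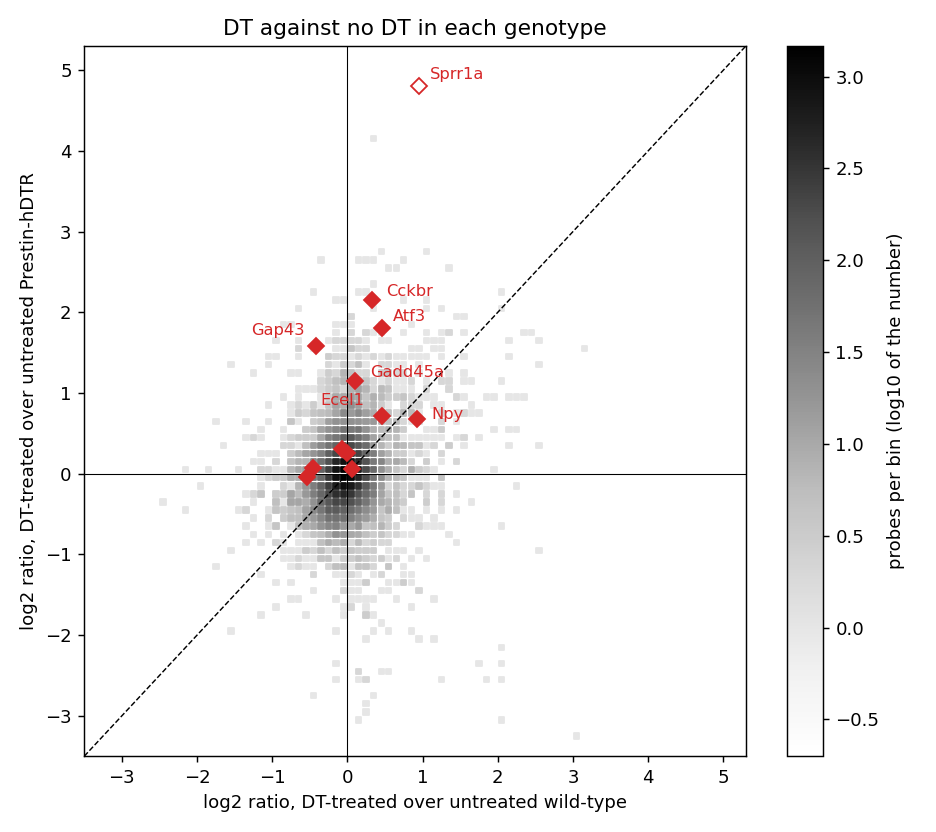
Log2 ratio of DT-treated over untreated mice in WT (horizontal axis) and in hDTR (vertical axis), with all 23688 probes well above background on all 4 arrays as grey bins, whose shade gives the log10 of their number, and the members as red diamonds. Equal effects lie on the dashed line; Gap43 lies above 0 in hDTR and below 0 in WT, and Sprr1a (open, a lower bound on the horizontal axis) lies above all bins.

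The 10 genes were set beside a list of 32 other genes raised after injury of sensory nerves, of which 28 were well above background on at least 1 array. A fold against the controls could be given for 24 of them. Of these, 5 were upregulated 2-fold or more in all 3 comparisons, where 1.08% of all probes were. None was downregulated in all 3, where 0.26% of all probes were. Vgf, a precursor of neuronal peptides, was 11-fold, 8.75-fold and 18.3-fold higher. Timp1, an inhibitor of matrix proteases, was 3.64-fold, 4.10-fold and 4.30-fold higher. Tnfrsf12a, the receptor for TWEAK, was 2.53-fold, 2.23-fold and 2.22-fold higher. Socs3, an inhibitor of cytokine signalling, was 2.12-fold, 2.16-fold and 2.15-fold higher, and the transcription factor Myc was 2.05-fold, 2.10-fold and 2.44-fold higher.

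Jun and Stat3, transcription factors of the injury programme, stayed below 2-fold: Jun was 1.07-fold, 1.12-fold and 1.04-fold of the controls and Stat3 1.42-fold, 1.39-fold and 1.39-fold. Lif, Vip, Nts and Gpr151, also on this list, were not well above background on any array. The median log2 ratio over the genes compared, 24 in each comparison, was 0.25, 0.30 and 0.26. In each of the 3 comparisons these medians lay below those of the 10 members. The member medians were 1.02, 0.73 and 0.93 with 1 probe per gene, and 0.32, 0.34 and 0.70 over all member probes. Members and lists were chosen with earlier results of these data known, which limits this comparison. Of 29 relatives, receptors and ligands of the members, 20 were measured and Npy2r alone was upregulated in all 3, with median log2 ratios of -0.11, -0.01 and -0.07.

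Several of the upregulated genes are also used by cells other than neurons, so cell type markers are given beside them. All 15 neuron markers were measured and none changed 2-fold in any of the 3 comparisons, with a summed signal of 181, 155 and 168 in untreated WT, DT-treated WT and untreated hDTR and 149 in DT-treated hDTR. The 10 Schwann cell markers, also without a 2-fold change, summed to 252, 189 and 223 in the controls and 221 in the depleted cochlea. Of 12 macrophage markers, 4 (Adgre1, Cd68, C1qb and Lyz2) were upregulated in all 3 comparisons, where 1.08% of all probes were. In all, 11 were above all controls, and the other, Itgam, was below all of them (0.59-fold, 0.78-fold and 0.85-fold). The summed signal of the 12 was 26.0, 23.0 and 20.9 in the controls and 32.4 in the depleted cochlea. Of the 15 neuron markers, 3 were above all controls and 8 below. Of the 10 Schwann cell markers, 3 were above all controls and 2 below. The part of any of these cell types in the values of the members was not tested.

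**Figure D4:**
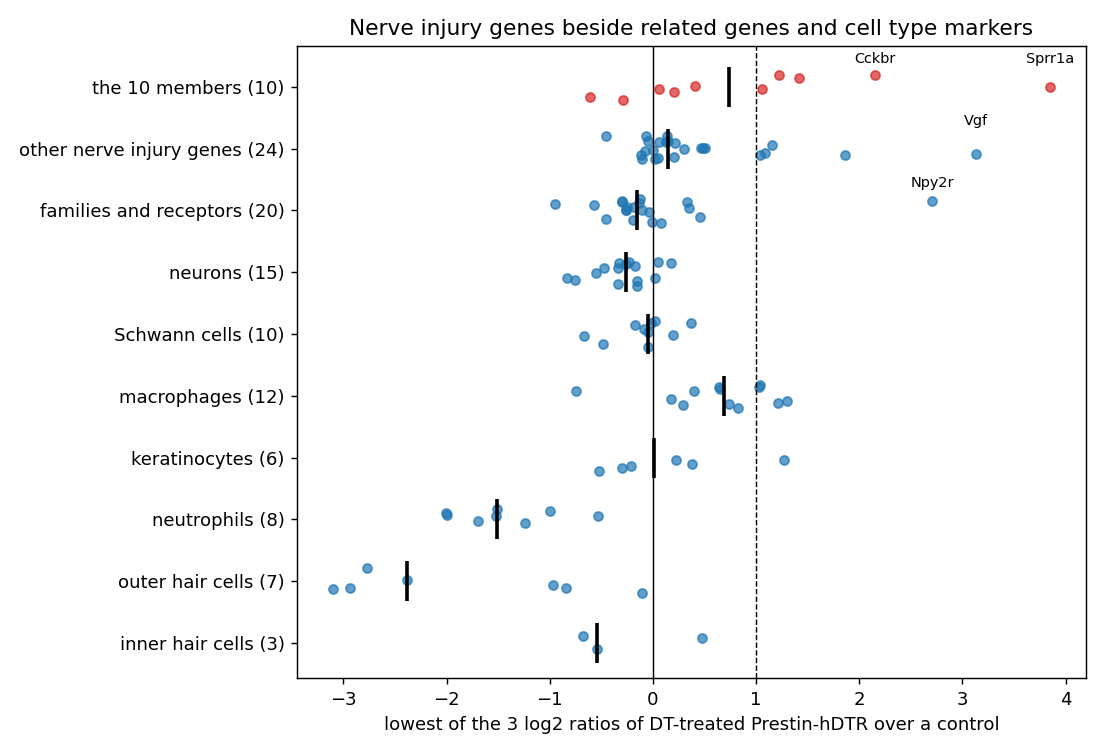
The lowest of the 3 log2 ratios of DT-treated hDTR over a control for each gene with a ratio in all 3 comparisons, by gene list, with the number of genes in brackets. Points are genes, black strokes are medians and the dashed line is 2-fold; Sprr1a and Cckbr among the 10 members, Vgf among the other nerve injury genes and Npy2r among the receptors lie furthest to the right.

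For the 4 upregulated members measured on all arrays, the probes with the nearest pattern were sought among 19052 probes of other named genes, as the Euclidean distance over the 3 log2 ratios, which share the array of DT-treated hDTR. Nearest to Atf3 were Kcnn4, a calcium-activated potassium channel, at 0.25, Oxtr, the oxytocin receptor, at 0.29 and Fos, an AP-1 factor, at 0.33. Nearest to Gap43 were Fntb at 0.18, Hsd17b6 at 0.21 and Akap10 at 0.24. Nearest to Cckbr were Vmn2r121 at 0.30, Apoc2 at 0.53 and Cep41 at 0.54. Nearest to Gadd45a were Kera, a proteoglycan of connective tissue, at 0.04, Cx3cr1, a chemokine receptor of macrophages, at 0.09 and Socs3 at 0.11. Within a distance of 0.5 lay 125 probes for Gadd45a, 24 for Gap43, 16 for Atf3 and 1 for Cckbr. Sprr1a was not entered, because it was not well above background on all arrays.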

How the data were processed

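Cochlear RNA, pooled by the authors within each of 4 groups, was measured on 1 single-colour Agilent array (Cy3) per group, all on 1 slide. Per the labels, signals were extracted with Agilent Feature Extraction 11.5.1.1. The deposited intensity of each spot is linear and background-subtracted by that software, without scaling between arrays. The series value table deposited by the authors holds signal values, which equal this intensity divided by the 75th percentile that the software lists for the array. It was used as an alternative.

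After control and outlier spots were removed, the spots of each probe were averaged, scaled to the array's 75th percentile over probes and brought to log2 (Python 3.11.15, numpy 2.4.6, pandas 2.3.3). A probe entered a comparison if either array measured it well above background, by the flag of the software on more than 0.5 of its spots. A value that was not measured in this sense was raised to the lowest measured signal of its array if it lay below that. A fold is a bound where its dimmer side was not measured. A fold is given only where the brighter side was measured. Probes were called at 2-fold. With 1 array per group no test was made, and precision is limited by that number. Spot errors come from probes with at least 5 spots.

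The 10 members and all 9 lists (128 genes) were chosen with earlier results of these data known. Of the lists, 1 probe per gene was used, the brightest on average of those measured on any array. Named were all members, list genes changed 2-fold or more in all 3 comparisons, relatives, receptors and ligands of the members, and the 3 nearest probes to each upregulated member. List genes named beyond this (Jun, Stat3, Basp1, Itgam, the keratinocyte and inner hair cell genes, and those not well above background) were chosen after their values were seen. For the alternatives, background was corrected by normexp with offset 50, and quantile normalization was made, in limma 3.58.1 (R 4.3.3). Probe positions are those of the array files (mm9) and promoters are from RefSeq (GRCm38.p6).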

Additional observations from a re-analysis of the deposited data

Results flagged for a closer look

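Gap43 was singled out because the effect of DT had opposite signs in the 2 genotypes, each beyond 2 times the error of repeated spots. The log2 ratio of DT-treated over untreated mice was 1.59 ± 0.11 in hDTR and -0.42 ± 0.12 in WT. The difference was 2.0 on the log2 scale. With 1 pooled array per group this difference was not tested. Neuron markers were lower with DT in both genotypes, with a median log2 ratio over 15 genes of -0.25 in WT and -0.17 in hDTR. Their part in the value of Gap43 was not tested. Untreated WT was the highest control for Gap43, and untreated hDTR was 0.77-fold of it.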

How the results depend on the processing

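The 5 upregulated genes reached 2-fold in all 3 comparisons under 7 of 8 other settings of background, scaling, floor, filter and source of values. The exception, probes well above background on all 4 arrays, removes Sprr1a by construction. At 3-fold, Sprr1a and Cckbr remained, 2 probes and 2 genes in all 3 comparisons, with 3 probes against untreated and 3 against DT-treated WT. Over all probes, 271 were upregulated in all 3, against 165 with normexp, 417 with no floor, 109 with probes well above background on all 4 arrays, 687 at 1.5-fold and 96 at 3-fold. With probes well above background on all 4 arrays, member probes changed between the controls numbered 0 for the transgene and 0 for DT, in place of 1 each. For DT in WT they numbered 2 with quantile normalization, 2 with no floor and 3 at 1.5-fold. With normexp, Sprr1a had log2 ratios of 3.68, 3.15 and 3.75, Cckbr (A_52_P596375) 1.95, 1.79 and 1.74 and Gap43 1.07, 1.42 and 1.44 against the 3 controls. No filter on dim probes moved the median log2 ratio of all probes to 0.12 against untreated WT and 0.12 against untreated hDTR. Where a fold was given, no ratio against the 3 controls changed its sign. Between controls, 1 Sox11 probe (A_52_P160955) did, from -0.04 to 0.03 for the transgene (median scaling) and from -0.01 to 0.02 and 0.01 for DT in WT (median scaling, and 75th percentile over measured probes). The DT effect in WT on the Cckbr probe A_51_P506201 moved from -1.81 to -3.83 with no floor. No paired analysis was possible because each group has 1 array, and no replicate could be left out for the same reason. Values near the floor (Sprr1a in the controls, Cckbr, Npy2r, Ivl) are limited by signal over background.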
